A study of Mus musculus with 4 samples.

Results

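The genes described here encode plasma membrane and lysosomal carriers of amino acids and their close relatives in the mouse colon, the solute carrier families Slc1, Slc3, Slc6, Slc7, Slc36, Slc38 and Slc43. They were chosen by gene symbol alone: 58 genes of 18194 named on the array, represented by 118 probe sets, each gene being read from the brightest of its probe sets on average. In at least 1 of the 4 arrays 32 of them came to a log2 value of 6, called the floor below, and 26 did not. The families are not restricted to amino acids, since Slc6a2, Slc6a3 and Slc6a4 carry monoamines, Slc6a8 carries creatine and Slc43a3 carries purine bases.

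RNA came from scraped colon mucosa of 129S6/SvEv mice aged 5 weeks, with 1 array per genotype. VhlF/F mice carried floxed Vhl, and VhlΔIE mice an intestine-specific knockout of it. VhlF/F/Apcmin/+ and VhlΔIE/Apcmin/+ mice carried in addition 1 Min allele of Apc, which makes them an intestinal tumor model. The design text names 4 VhlF/F, 3 VhlΔIE, 3 VhlF/F/Apcmin/+ and 5 VhlΔIE/Apcmin/+ mice and does not state whether their RNA was pooled; neither the Cre driver nor the sex of the mice is given in the sources used here. Values are the deposited RMA log2 values, on which a difference of 1 is a 2-fold difference. With 1 array per genotype no difference below has a replicate check, and none was tested.

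Amino acids enter an epithelial cell through carriers on the luminal face, leave through exchangers on the basolateral face and are returned from lysosomes by a further set. Several of the exchangers are heterodimers, in which a light chain of family 7 forms the pore and a heavy chain of family 3 brings it to the membrane. Carriers differ in the ion that drives them and in the amino acids they accept, and are grouped into transport systems on that basis. Vhl encodes a ubiquitin ligase subunit that has the hypoxia-inducible factors (HIF) degraded when oxygen is ample, and Apc restrains beta-catenin.

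In both Apc backgrounds 3 carriers, Slc7a8, Slc7a9 and Slc38a1, were at least 2-fold higher in the Vhl deleted array, and 1, Slc36a1, was at least 2-fold lower. Slc3a1, the partner of Slc7a9, was higher in both backgrounds but by unequal amounts, 1.77-fold without and 23.9-fold with the Apc mutation. The larger fold is set against a reading of 4.87, under the floor, and is 10.9-fold with that reading raised to 6. With the Apc mutation Slc1a4 was also at least 2-fold higher and Slc6a4 at least 2-fold lower, and without it both lay on the same side within 2-fold. The other 25 carriers above the floor were within 2-fold in all 4 comparisons.

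Without the Apc mutation, 3 of 32 carriers were at least 2-fold higher in the Vhl deleted array, 9.38%, where 2.27% of all 11871 genes above the floor were. At least 2-fold lower was 1 carrier, against 1.6% of all genes. With the Apc mutation 5 carriers were higher, 15.6% against 2.82% of all genes, and 2 were lower, 6.25% against 1.52%. Both Vhl comparisons, which share no array, had the 3 higher carriers in common, against 1.58% of all genes, and the 1 lower carrier, against 0.733%. Of 203 other solute carrier genes that reached the floor, both comparisons had 5 higher and 6 lower. The median difference of the 32 carriers was -0.05 without and 0.28 with the Apc mutation, and those of all genes were -0.02 and -0.02. The first of these medians changed sign with the mean over probe sets, 0.02, and at a floor of 7, 0.11, so it has no settled direction. The second fell to 0.0055 without a floor and to 0.11 with the floxed arrays exchanged.

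**Figure D1:**
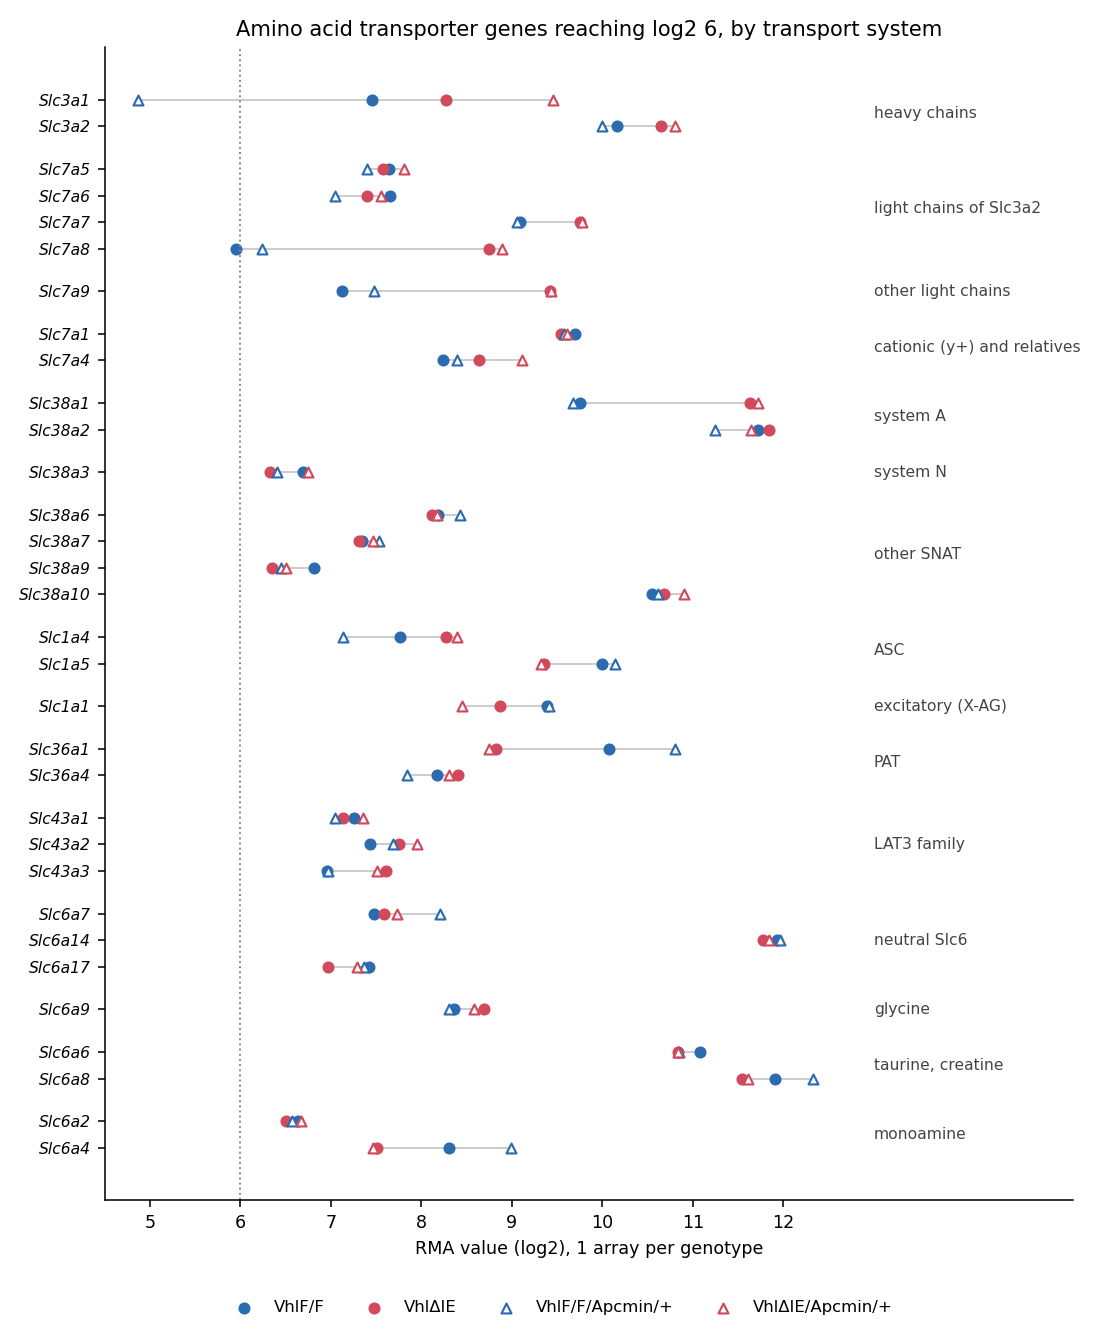
RMA log2 value (horizontal axis) of each of the 32 carriers that reached 6, in rows grouped by transport system, with 1 point per array; blue marks Vhl floxed and red Vhl deleted arrays, filled circles wild-type Apc and open triangles mutant Apc, and the dotted line is the floor of 6. Slc7a8, Slc7a9 and Slc38a1 show both red points far to the right of both blue points, Slc36a1 the reverse, and Slc3a1 a single low point at 4.87 in VhlF/F/Apcmin/+.

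In 13 of 32 carriers both Vhl deleted arrays lay above both floxed arrays, where 27.7% of all genes did. In 9 both lay below, where 33.4% of all genes did. Signs agreed between the Vhl comparisons for 24 of 32 carriers, 75.0%, and for 75.9% of all genes.

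**Figure D2:**
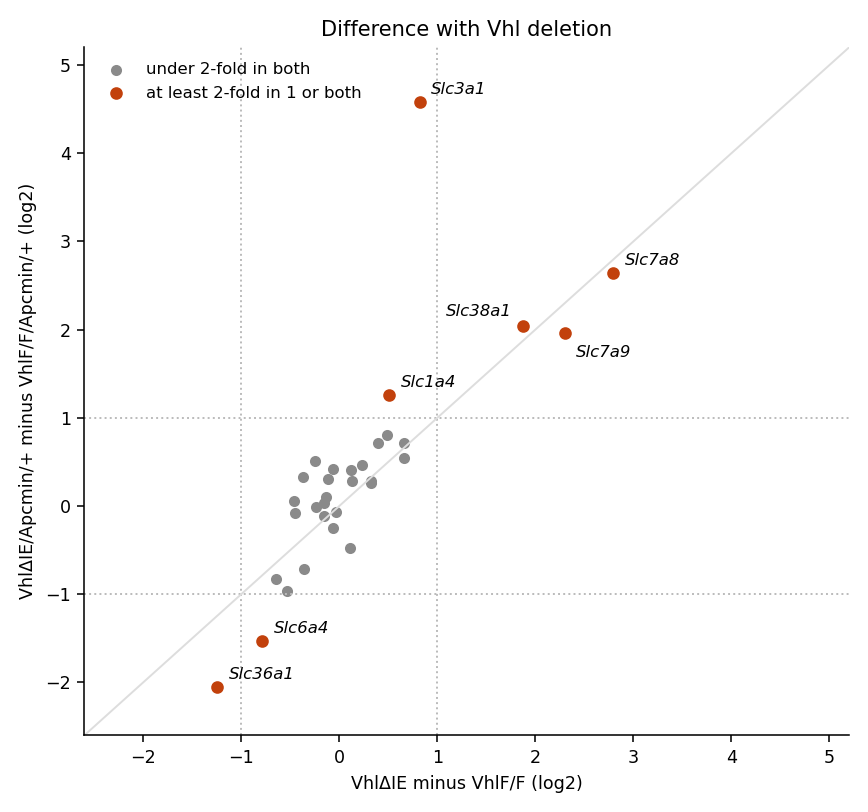
Vhl difference of the 32 carriers on the log2 scale without the Apc mutation (horizontal) and with it (vertical), 1 point per gene, with dotted lines at 2-fold and a grey line of equality. Slc7a8, Slc7a9 and Slc38a1 lie near the line beyond 2-fold on both axes, and Slc3a1 lies far above it at 0.82 and 4.58.

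Slc7a8 encodes the light chain LAT2, a basolateral exchanger of neutral amino acids. It read 5.95 in VhlF/F, 8.74 in VhlΔIE, 6.24 in VhlF/F/Apcmin/+ and 8.89 in VhlΔIE/Apcmin/+. Both deleted arrays were high and both floxed arrays lay at the floor, with no overlap. The differences were 2.80 and 2.65, or 6.94-fold and 6.26-fold. Because probe signal near background is compressed, these folds may understate the change. In scraped mucosa a higher share of the cells that express a gene and more RNA per cell cannot be told apart, here or for any carrier below.

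Slc7a9 encodes the light chain that pairs with Slc3a1 (rBAT) in the luminal exchanger of cystine and dibasic amino acids, the one affected in cystinuria. It read 7.12 in VhlF/F, 9.42 in VhlΔIE, 7.47 in VhlF/F/Apcmin/+ and 9.43 in VhlΔIE/Apcmin/+. The 2 deleted arrays were nearly equal and both were high. The differences were 2.30 and 1.96.

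The heavy chain Slc3a1 did not follow its partner. It read 7.46 in VhlF/F, 8.28 in VhlΔIE, 4.87 in VhlF/F/Apcmin/+ and 9.45 in VhlΔIE/Apcmin/+. The Vhl deleted arrays were again above the floxed ones, by 0.82 and 4.58, but the second value rests on the low VhlF/F/Apcmin/+ array. Set against the other floxed array, VhlΔIE/Apcmin/+ was higher by 2.00 and VhlΔIE was higher than VhlF/F/Apcmin/+ by 3.41. The Vhl difference of Slc3a1 was larger with the Apc mutation by 3.76, and by 2.63 with the reading of 4.87 raised to 6, where the difference with the mutation was 3.45. It was the 1 carrier with a gap of at least 1 in that direction, against 1.27% of all genes, and 0 carriers had one in the other direction, against 0.295%. A single probe set measures Slc3a1, so no second one could be compared.

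Other transcripts differed between the Apc genotypes as well. Hoxd13, which patterns the hindgut, read 9.13, 8.65, 11.08 and 9.05 in the order VhlF/F, VhlΔIE, VhlF/F/Apcmin/+ and VhlΔIE/Apcmin/+. Markers of small intestinal enterocytes had lower mean levels in both Apc mutant arrays. Of the 6 above the floor, 5 were at least 2-fold lower in VhlF/F/Apcmin/+ than in VhlF/F. In VhlΔIE/Apcmin/+ 3 of the 6 were at least 2-fold lower than in VhlΔIE, while Fabp2 and Alpi were higher by 0.44 and 0.86. The mean levels of all 7 measured were 8.21, 7.73, 6.51 and 6.92 in the order above. In VhlF/F/Apcmin/+ 3 of them were lowest, Fabp2, Alpi and Apoa1, and in VhlΔIE/Apcmin/+ 4, Apoa4, Apoc3, Fabp6 and the lactase gene Lct, which lay under the floor in every array. The liver also makes Apoa1 and Apoc3, and the liver protein Alb read 11.53 in VhlF/F. The part of the stretch of gut sampled in the Slc3a1 values was not tested.

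Slc3a2, the CD98 heavy chain that carries most other light chains to the membrane, read 10.16 in VhlF/F, 10.65 in VhlΔIE, 9.99 in VhlF/F/Apcmin/+ and 10.80 in VhlΔIE/Apcmin/+. Both deleted arrays were above both floxed arrays, by 0.49 and 0.80. Slc7a7, a basolateral exporter of dibasic amino acids, read 9.09, 9.75, 9.06 and 9.77 in the same order. Its differences were 0.66 and 0.71, and its second probe set gave 0.73 and 0.78. Slc7a5 (LAT1), the carrier of large neutral amino acids typical of dividing cells, read 7.64, 7.58, 7.40 and 7.81. Slc7a6, close in function to Slc7a7, read 7.65, 7.40, 7.04 and 7.55. For both the arrays overlapped by Vhl status, with differences of -0.06 and 0.42 and of -0.25 and 0.50. The second probe set of Slc7a6 read 7.32, 7.51, 6.87 and 7.52, without overlap, and gave 0.19 and 0.64, so the first difference of Slc7a6 has no settled sign. Slc7a11, the cystine and glutamate exchanger, lay under the floor at 4.45 to 4.85, as did Slc7a10. Of the 4 light chains of Slc3a2 above the floor, Slc7a8 was the 1 beyond 2-fold.

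Proliferation markers, a setting in which Slc7a5 and Slc3a2 are known to be high, had mean levels of 8.55, 9.63, 8.17 and 9.39 in the order above, and 3 of 6 were at least 2-fold higher in both Vhl deleted arrays. Macrophage and dendritic cell markers, whose cells also express Slc7a7, had mean levels of 7.84, 8.57, 8.20 and 8.52, with 1 of 8 at least 2-fold higher without the Apc mutation and 0 with it. Mast cell markers had mean levels of 5.44, 6.44, 5.08 and 6.46. Of the 3 above the floor, the proteases Mcpt1 and Mcpt2 were at least 2-fold higher in both Vhl comparisons, with differences of 2.07 to 2.79. The third, Kit, was the brightest of them and went the other way, with differences of -0.66 and -0.04. Smooth muscle markers had mean levels of 12.15, 11.64, 12.01 and 11.58, with median differences of -0.51 and -0.43 and 0 of 6 beyond 2-fold. The part of these cells in the values of the carriers was not tested.

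**Figure D3:**
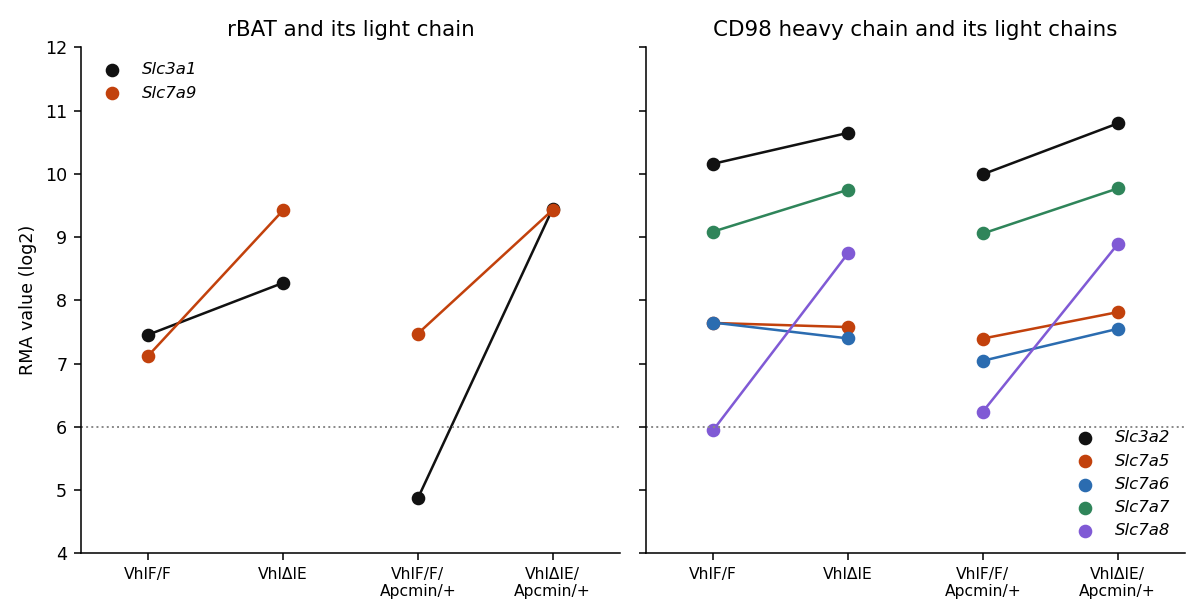
RMA log2 value (vertical axis) in each of the 4 arrays for the heavy chain Slc3a1 with its light chain Slc7a9 (left) and for Slc3a2 with its light chains above the floor (right); lines join the floxed and deleted array of 1 Apc background and the dotted line is the floor. Heights of different genes are not comparable; slopes are, and they are steep for Slc7a8 and Slc7a9 in both backgrounds and for Slc3a1 in one.

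Promoter sequences are given for the carriers at least 2-fold apart in both Vhl comparisons and for Slc3a1, as the 250 bases before the start of the first transcript window in the RefSeq table of GRCm38.p6, because HIF binds a short core on DNA. The core was searched as ACGTG and GCGTG on both strands, so that it can also appear as CACGT or CACGC in the strand printed. The cores of the 2 strands overlap where they form CACGTG. Capitals mark the matches. No window is shown for Slc38a1.
Slc7a8, chr14:54781887-54782136, minus strand: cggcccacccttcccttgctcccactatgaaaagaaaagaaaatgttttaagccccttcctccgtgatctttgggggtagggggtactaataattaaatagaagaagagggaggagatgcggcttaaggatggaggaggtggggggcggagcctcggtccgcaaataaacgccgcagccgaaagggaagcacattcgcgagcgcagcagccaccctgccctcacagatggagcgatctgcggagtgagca
Slc7a9, chr7:35448842-35449091, plus strand: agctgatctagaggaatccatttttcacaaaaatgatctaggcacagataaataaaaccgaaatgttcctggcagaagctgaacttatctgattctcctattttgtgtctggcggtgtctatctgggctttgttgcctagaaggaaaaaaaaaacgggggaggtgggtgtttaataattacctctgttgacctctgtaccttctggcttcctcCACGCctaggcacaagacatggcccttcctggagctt
Slc3a1, chr17:85028097-85028346, plus strand: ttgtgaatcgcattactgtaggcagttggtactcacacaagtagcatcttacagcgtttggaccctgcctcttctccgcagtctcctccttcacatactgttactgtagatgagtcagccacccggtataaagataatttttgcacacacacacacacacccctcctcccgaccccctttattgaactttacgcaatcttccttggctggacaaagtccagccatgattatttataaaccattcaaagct
Slc36a1, chr11:55204090-55204339, plus strand: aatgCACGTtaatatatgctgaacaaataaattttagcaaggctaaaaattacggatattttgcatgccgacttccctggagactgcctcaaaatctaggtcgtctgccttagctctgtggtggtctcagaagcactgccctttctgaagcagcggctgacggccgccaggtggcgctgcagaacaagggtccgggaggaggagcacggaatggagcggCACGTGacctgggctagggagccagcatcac

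The Slc7a9 window held 1 match, with its first letter 37 bases before the start, and Slc36a1 held 3, of which 2 overlap in a CACGTG at 31 bases before the start. No such letters were in the windows of Slc7a8 and Slc3a1. At least 1 match was found in 63.6% of the 22 carriers above the floor that have a window, in 61.0% of the 9565 genes above the floor that have one, and in 41.5% of all 27025 genes with one. CACGTG was found in 3 of these 22 carriers, 13.6%, in 9.9% of the genes above the floor and in 6.86% of all genes with a window. A match describes the sequence and is not evidence of binding.

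Slc38a1 and Slc38a2 encode the sodium-driven system A carriers of glutamine, alanine and other small neutral amino acids. Slc38a1 read 9.75 in VhlF/F, 11.63 in VhlΔIE, 9.68 in VhlF/F/Apcmin/+ and 11.72 in VhlΔIE/Apcmin/+. Its arrays formed a low floxed pair and a high deleted pair, with differences of 1.88 and 2.04. The second probe set, at lower signal, gave 1.87 and 1.99. Slc38a2 read 11.72, 11.84, 11.24 and 11.65, and its arrays overlapped, with differences of 0.12 and 0.41. Its other 2 probe sets did not overlap, with the deleted arrays higher by 0.15 and 0.23 on one and by 0.0057 and 0.25 on the other. The 3 system A genes lie in a row on chromosome 15 with no other protein-coding gene between them, and the third, Slc38a4, was under the floor in every array at 3.40 to 4.22. Slc38a1 alone of these neighbours was beyond 2-fold.

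The remaining Slc38 carriers above the floor stayed within 2-fold. Slc38a3, a glutamine carrier of system N, read 6.70, 6.33, 6.41 and 6.74, and its Vhl differences had opposite signs, -0.37 and 0.33. Slc38a6, Slc38a7, Slc38a9 and Slc38a10 had differences from -0.47 to 0.13 without and from -0.25 to 0.28 with the Apc mutation. Slc38a10 read 10.55, 10.68, 10.62 and 10.90. Slc38a9, which senses arginine in the lysosome for mTORC1, differed by -0.47 without and 0.05 with the mutation. Its other probe sets that reached the floor gave -0.76 and -0.24, -0.48 and -0.17, and -0.27 and -0.08. The second difference of Slc38a9 thus has no settled sign. Slc38a5 was under the floor.

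Slc36a1, the proton-driven carrier of small neutral amino acids at the brush border and the lysosome, was the 1 carrier at least 2-fold lower in both backgrounds. It read 10.07 in VhlF/F, 8.83 in VhlΔIE, 10.80 in VhlF/F/Apcmin/+ and 8.75 in VhlΔIE/Apcmin/+. The deleted arrays were close to each other and below both floxed arrays, with differences of -1.25 and -2.05. The larger second gap goes with a floxed array that was higher by 0.73 with the Apc mutation; against the other floxed array the differences were -1.97 and -1.32. Slc36a4 read 8.17, 8.40, 7.84 and 8.31, with differences of 0.23 and 0.47. Slc36a2 and Slc36a3, the neighbours of Slc36a1 on chromosome 11, were under the floor at 5.01 to 5.88.

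The ASC carriers went opposite ways. Slc1a4, which exchanges serine, alanine and cysteine, read 7.76 in VhlF/F, 8.27 in VhlΔIE, 7.14 in VhlF/F/Apcmin/+ and 8.40 in VhlΔIE/Apcmin/+. Both deleted arrays were above both floxed arrays, by 0.51 and 1.26. Its probe sets were unequal, since the second gave 0.53 and 1.86 and the third 0.21 and 0.24, and against VhlF/F the VhlΔIE/Apcmin/+ array was higher by 0.64. Slc1a5, the main exchanger of glutamine in many dividing cells, read 10.00, 9.35, 10.14 and 9.32. Both deleted arrays were below both floxed arrays, with differences of -0.65 and -0.82, and its second probe set gave -1.03 and -0.73. Slc1a1, the epithelial carrier of glutamate and aspartate, read 9.39, 8.86, 9.41 and 8.45. It differed by -0.53 and -0.96, without overlap, and all 3 of its probe sets were lower in both backgrounds. The other 4 excitatory carriers, Slc1a2, Slc1a3, Slc1a6 and Slc1a7, were under the floor.

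**Figure D4:**
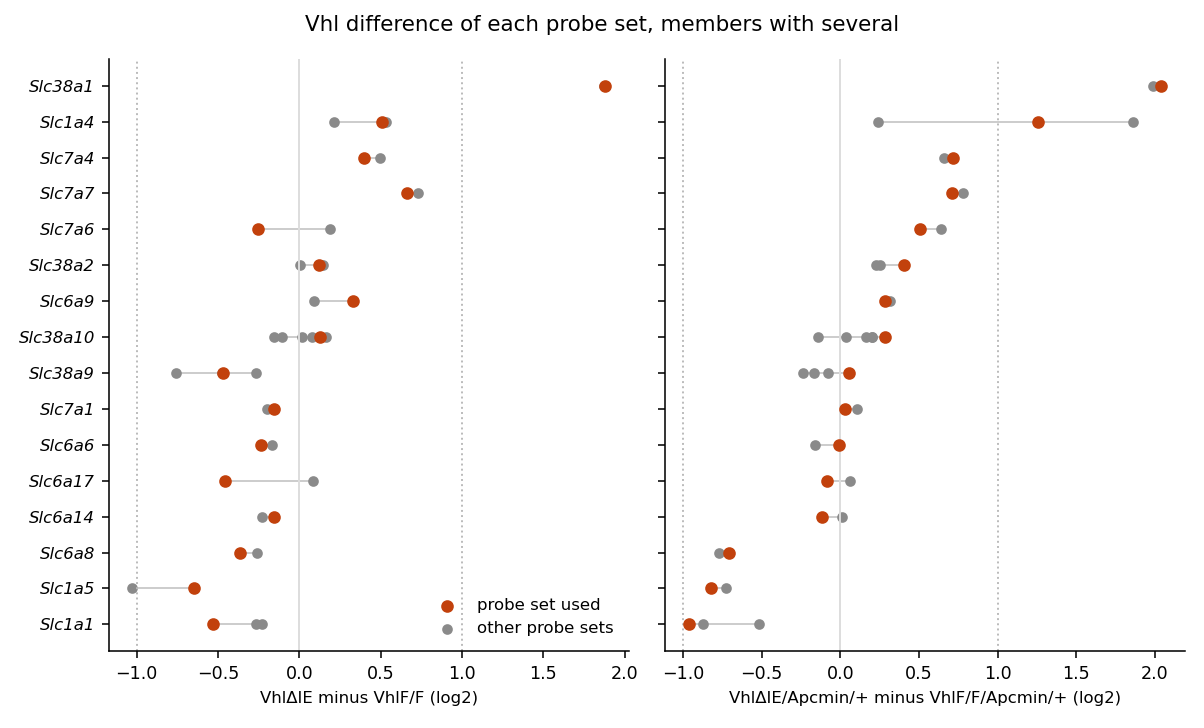
Vhl difference on the log2 scale (horizontal axis) of every probe set above the floor, for the carriers with more than 1 such probe set, without the Apc mutation (left) and with it (right); orange marks the probe set used for the gene, grey the others, and dotted lines mark 2-fold. Both Slc38a1 probe sets lie near 2 in both panels, whereas those of Slc1a4 spread from 0.24 to 1.86 with the Apc mutation.

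Carriers of dibasic amino acids and of branched-chain amino acids without a heavy chain stayed within 2-fold. Slc7a1, the general importer of arginine and lysine, read 9.70, 9.54, 9.58 and 9.61. Slc7a4, a relative of the cationic carriers, had both deleted arrays above both floxed arrays, by 0.40 and 0.71. Slc7a2, Slc7a3 and Slc7a14 were under the floor. Slc43a2, a facilitated carrier of branched-chain amino acids and phenylalanine, read 7.43, 7.76, 7.69 and 7.95. Slc43a1 differed by -0.12 and 0.31. Slc43a3, the purine base carrier, was higher by 0.66 and 0.54 without overlap. Endothelial markers, whose cells express Slc43a3, were higher as well. Of 6 such markers, 4 were at least 2-fold higher in both Vhl comparisons, and their mean levels were 6.85, 8.24, 6.92 and 8.19. Their part in the Slc43a3 values was not tested.

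In family 6, Slc6a4 differed most. It encodes the serotonin transporter, by which the gut epithelium clears serotonin from the mucosa. It read 8.30 in VhlF/F, 7.51 in VhlΔIE, 8.99 in VhlF/F/Apcmin/+ and 7.46 in VhlΔIE/Apcmin/+. Both deleted arrays were below both floxed arrays. The differences were -0.79 and -1.53, and -1.48 and -0.84 when the floxed arrays were exchanged. Slc6a8, the creatine carrier, read 11.91, 11.54, 12.32 and 11.61, with differences of -0.36 and -0.71 and no overlap. Slc6a14, a carrier of neutral and cationic amino acids that is prominent in the colon, read 11.93, 11.77, 11.96 and 11.84, and differed by -0.16 and -0.12. Slc6a8 and Slc6a14 are the 2 carriers above the floor on the X chromosome. Xist, which coats the inactive X, read 11.37 and 11.83 in the floxed and 5.58 and 6.25 in the deleted arrays, so sex makeup and Vhl status cannot be told apart for any carrier.

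The taurine carrier Slc6a6 differed by -0.24 without the Apc mutation and -0.01 with it. Slc6a9, a glycine carrier, read 8.37, 8.69, 8.30 and 8.59. Its deleted arrays were above the floxed ones by 0.33 and 0.28. The proline carrier Slc6a7 read 7.48, 7.59, 8.21 and 7.73 and was highest in VhlF/F/Apcmin/+. Slc6a17, known from neurons, and the noradrenaline carrier Slc6a2 had differences between -0.46 and 0.10. A second probe set of Slc6a17 above the floor gave 0.08 and 0.06, where the one used gave -0.46 and -0.08. The differences of Slc6a17 thus have no settled sign. Slc6a19, the main neutral amino acid carrier of the small intestinal brush border, stayed just under the floor with a highest value of 5.98. Its partner Cltrn read 3.12 to 3.51. The next carriers under the floor were Slc36a2 at 5.88 and Slc1a7 at 5.79, and the lowest above it were Slc6a2 at 6.67, Slc38a3 at 6.74 and Slc38a9 at 6.81. Slc6a3, Slc6a5, Slc6a11, Slc6a12, Slc6a13, Slc6a15, Slc6a16, Slc6a18, Slc6a21, Slc7a12, Slc7a13 and Slc7a15 were the others that did not reach 6.

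Between Apc genotypes 1 carrier was beyond 2-fold. These comparisons use the same 4 arrays as the Vhl comparisons and are not independent of them. With floxed Vhl 0 of 32 were at least 2-fold higher, against 0.118% of all genes, and 1 was lower, against 0.901%. With deleted Vhl 1 was higher, against 0.202%, and 0 were lower, against 0.118%. The carrier was Slc3a1 each time, at -2.59 with floxed Vhl and 1.18 with deleted Vhl; the first was -1.46 with the reading under the floor raised to 6. The next largest with floxed Vhl were Slc6a7 and Slc36a1, higher by 0.73 each, and Slc6a4, higher by 0.69. Slc1a4 and Slc7a6 differed by -0.62 and -0.60, and another probe set of Slc1a4 by -1.17. The second probe set of Slc6a14 differed by -0.74 with floxed and -0.49 with deleted Vhl, where the one used gave 0.03 and 0.07. With deleted Vhl, Slc7a4 was higher by 0.48 and Slc38a3 by 0.42, and Slc1a1 differed by -0.41. The median differences were -0.04 and 0.11, against 0.00 and 0.00 for all genes, and the first turned to 0.02 when probe sets that can cross-hybridise were left out. The carriers at least 2-fold higher with Vhl deletion in both backgrounds, Slc7a8, Slc7a9 and Slc38a1, differed by at most 0.35 in either Apc comparison.

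**Figure D5:**
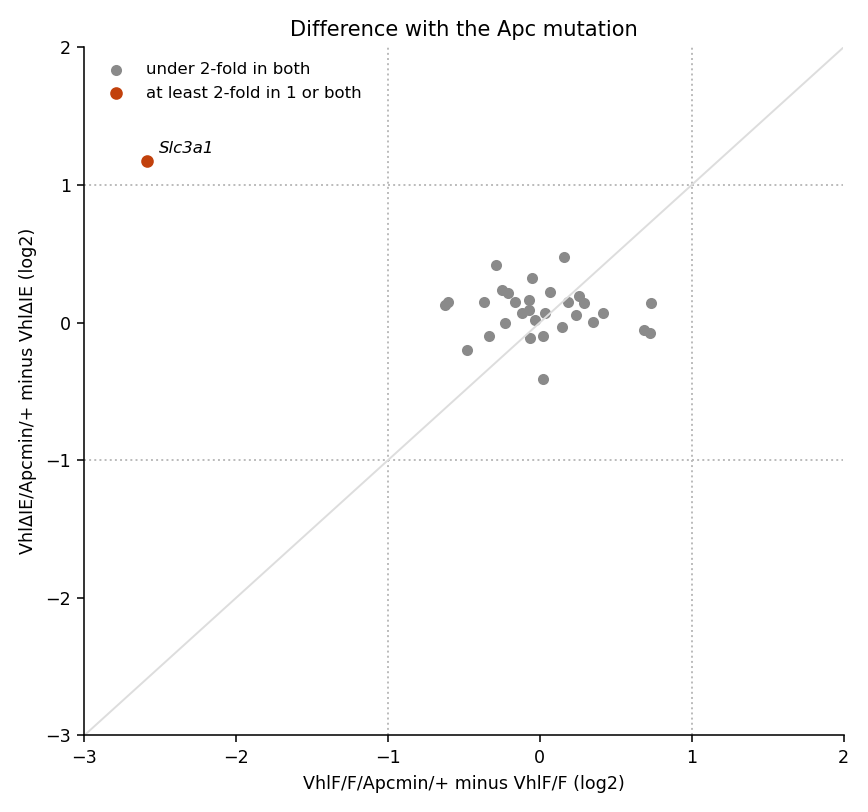
Apc difference of the 32 carriers on the log2 scale with floxed Vhl (horizontal) and with deleted Vhl (vertical), 1 point per gene, with dotted lines at 2-fold and a grey line of equality. Slc3a1 lies at -2.59 and 1.18, and the other 31 carriers lie inside the 2-fold lines on both axes.

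Genes that work alongside these carriers were described from fixed lists. Of 15 measured amino acid and peptide carriers of other families above the floor, 0 were at least 2-fold apart in the same direction in both Vhl comparisons. The mitochondrial aspartate and glutamate carrier Slc25a13 came nearest, at 9.46, 10.45, 9.37 and 10.58, or 0.99 and 1.21 higher. The peptide carrier Slc15a1 differed by -0.09 and -0.88. Of 14 genes of the amino acid response above the floor, 1 was at least 2-fold higher in both, the secreted glycoprotein Stc2, at 1.70 and 2.36. Atf4, the transcription factor at the head of that response, differed by -0.24 and -0.04, and its target Asns, asparagine synthetase, by 0.41 and 0.80. Of 23 genes of amino acid sensing by mTORC1, 0 were beyond 2-fold in any of the 4 comparisons. Of all genes at most 2.82% were so in 1 direction of 1 comparison. Of 19 amino acid enzymes, 0 were beyond 2-fold the same way in both Vhl comparisons, against the same 1.58% and 0.733% of all genes. The median differences of the 19 were -0.27 and -0.26, and Gpt2 came nearest, at -0.88 and -1.04. Against that lean the arginase Arg2 was higher by 0.78 and 2.08. The second of these is set against its lowest value, 4.60 in VhlF/F/Apcmin/+, which lies under the floor. The list of partners held Bsg, a chaperone of lactate carriers, higher by 0.88 and 1.00, Cd44 at 0.01 and 0.19 and Anpep at -0.12 and -0.44.

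The label checks were as follows. Vhl read 8.40 and 8.17 in the floxed and 7.03 and 6.56 in the deleted arrays. All 8 markers of absorptive colonocytes were above the floor, with mean levels between 12.62 and 12.88. Alb read 11.53 in VhlF/F and at most 7.24 in the other arrays. Of 8 hepatocyte markers, Alb among them, 7 were at least 2-fold lower than in VhlF/F both in VhlΔIE and in VhlF/F/Apcmin/+. The other, Ttr, differed by -0.65 and 0.24. Mean levels of the 8 were 8.95, 5.48, 5.35 and 5.32 in the order VhlF/F, VhlΔIE, VhlF/F/Apcmin/+ and VhlΔIE/Apcmin/+. Neuron and glia markers, with 3 of 6 under the floor, had mean levels of 5.89 to 6.16. The part of liver transcripts in the values of the carriers was not tested.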

How the data were processed

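Colon mucosa RNA of 4 genotypes was measured on 1 Affymetrix mouse array each. The authors deposited log2 values, 1 for each of 45101 probe sets; the submitters' processing notes name affy and RMA. Quantile scaling in RMA gives every array the same distribution, and background compresses differences of dim probe sets. No version is given in the sources used here. The array medians lay between 6.05 and 6.07. The number of arrays limits the precision.

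Symbols came from the platform annotation: 34958 probe sets had 1 symbol, 932 several and 9211 were not listed. All 58 members were found by Entrez identifier in RefSeq (GRCm38.p6). Probe sets with several symbols were not used. A gene took its probe set of highest mean and counted as above the floor where any array came to a log2 value of 6, as 11871 genes did. Differences of 2-fold were counted, without a test. Text values were printed for genes at least 2-fold apart in any comparison, for the highest-mean gene of each system and for named subunits. Related genes came from fixed lists. Slc36a4, Slc6a7, Slc7a4, Slc43a3, Slc25a13, Slc15a1, Atf4, Asns, Nupr1, Arg1, Arg2 and Gpt2 were chosen after their values were seen. So were the genes of the label checks. Members and lists were chosen with earlier results of these data known. Counting was tested on simulated data. Alternatives are given in the closing section. Python 3.11.15, pandas 2.3.3, numpy 2.4.6, matplotlib 3.10.9, R 4.3.3 and limma 3.58.1 (cyclic loess) were used.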

Additional observations from a re-analysis of the deposited data

Results flagged for a closer look

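Slc3a1 went opposite ways with the Apc mutation in the 2 Vhl backgrounds. It differed by -2.59 with floxed Vhl and by 1.18 with deleted Vhl. The difference between the backgrounds was not tested, since each rests on 1 array per genotype. Its lowest value, 4.87 in VhlF/F/Apcmin/+, is the 1 below the floor of 6 among its 4 arrays, and the first difference is -1.46 with it raised to 6.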

How the results depend on the processing

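Counts at the 2-fold threshold did not move by over 1.5 times without a floor, at a floor of 7, with values under 6 raised to 6, with the mean over probe sets, without cross-hybridising probe sets or with cyclic loess. At a 1.5-fold threshold 6 carriers were higher and 3 lower with Vhl deletion without the Apc mutation, 8 and 5 with it, 5 and 3 in both, and 3 and 3 for the Apc mutation with floxed Vhl. Of all 11871 genes these counts were 738 and 603, 854 and 611, 525 and 324, and 125 and 280. With the floxed arrays exchanged, an alternative chosen after seeing the data, 5 carriers were higher and 2 lower in VhlΔIE (of all genes 373 and 172), and 4 higher and 1 lower in VhlΔIE/Apcmin/+ (268 and 200), with medians of 0.066 and 0.11. The median with the Apc mutation was 0.0055 without a floor, which adds 26 dim carriers, and the median without it was 0.11 at a floor of 7. Of 138 values of the 7 carriers beyond 2-fold under other settings, 131 stayed on their side of 2-fold, 3 fell within it and 4 passed it. Many of the 138 could not move, so this tally overstates the check. Slc3a1, Slc6a4, Slc7a8, Slc7a9 and Slc36a1 have 1 probe set each, and both probe set settings repeat their main values. Raising values under 6 to 6 changes only carriers with such a reading, Slc3a1 and Slc7a8. In 4 of the 138 the sign changed, 3 for Slc38a1 and 1 for Slc1a4 in Apc comparisons, all from differences under 2-fold; 0 of the 67 values of differences beyond 2-fold changed sign. Cyclic loess moved the median of all genes by at most 0.04. No paired analysis was possible because each genotype has 1 array.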

Other observations

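Among carriers under the floor, Slc38a4 and Slc7a2, both known from hepatocytes, had their highest values in VhlF/F, at 4.22 and 5.41. In the other arrays they read 3.40 to 3.74 and 4.98 to 5.23. Further carriers under the floor were also highest in VhlF/F, among them Slc6a19 at 5.98 and Slc7a10 at 5.30. Others were highest in VhlF/F/Apcmin/+, among them Slc6a12 at 4.60 and Slc1a2 at 5.32. Of the other Slc7a2 probe sets, those reaching 3.95 and 3.74 were highest in VhlF/F/Apcmin/+, and that reaching 3.98 in VhlF/F. Nupr1, a stress response gene, read 11.20, 11.16, 10.18 and 11.29 in VhlF/F, VhlΔIE, VhlF/F/Apcmin/+ and VhlΔIE/Apcmin/+. It was lowest in VhlF/F/Apcmin/+, as were Slc3a1, Slc1a4 and Arg2. Of the 32 carriers above the floor, 11 were lowest in that array, 34.4%. The share of all genes lowest there was not counted, so this is not read as a trait of the carriers. Highest in that array were 9 carriers, 28.1%, where 29.9% of all genes were. The arginase Arg1 read 6.47, 4.66, 4.24 and 5.63 in the same order, and its Vhl difference was -1.82 on wild-type and 1.39 on mutant Apc. It reached the floor in VhlF/F alone, so the second difference lies between readings that are both under the floor. Alb read 11.53 in VhlF/F, and the part of liver transcripts in the Arg1 values was not tested.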
